A study of Mus musculus with 8 samples.

Results

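The Schlafen genes of the mouse were followed across 8 expression arrays of CD4 T cells cultured as Th17 cells, the T helper cells that make interleukin 17. The 7 genes considered were Slfn1, Slfn2, Slfn3, Slfn4, Slfn5, Slfn8 and Slfn9. Each was represented by 1 probe set, a group of probes summarised to 1 value, that the platform annotation assigned to that gene alone. They are 7 of the 19938 genes with such a probe set, and 6 of them were among the 11128 genes bright enough to be tested. Slfn4 was below this filter, which asked for a log2 signal of 7.85, the median of all values, on at least 2 arrays. The other 6 exceeded that value on every array, so none of them entered through 1 group alone.

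The arrays came from 2 experiments of 2 genotypes each, with 2 biological replicates in each of the 4 groups. SRC-3-deficient cells, from mice labelled SRC-3 (f/f), were compared with cells of SRC-3 WT mice. SRC-3 is a coactivator that nuclear receptors recruit. RORγt-deficient cells, from RORgt (-/-) mice that lack the nuclear receptor directing the Th17 fate, were compared with cells of RORgt WT mice. Per the labels, naive CD4 T cells were activated through CD3 and CD28 and cultured with IL-1, IL-6 and IL-23. The labels name no Cre driver for the f/f mice, and no label states whether the replicates of a group were separate mice, so the p-values reflect only how far these samples differ within groups, which may be technical.

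Schlafen proteins are intracellular proteins found in mammals, and the family takes its name from the German word for sleeping, because Slfn1 slowed the growth of T cells when it was overexpressed. Short members (Slfn1 and Slfn2) and intermediate members (Slfn3 and Slfn4) consist mainly of the conserved Schlafen core, while long members (Slfn5, Slfn8 and Slfn9) carry an additional domain related to helicases. Slfn2 is needed for T cells to stay quiescent and to survive activation. Members of the family bind or cut transfer RNA, and many are induced by type I interferon. The genes lie side by side in 1 cluster on chromosome 11, in the order Slfn5, Slfn9, Slfn8, Slfn2, Slfn1, Slfn4 and Slfn3 in the GRCm38 annotation.

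Ncoa3, the gene of SRC-3, was at 11.15 and 10.97 in cells lacking SRC-3, against 11.76 and 11.53 in their wild type (log2 fold change −0.58, SE 0.09, limma adjusted p = 0.0567), a lower level that missed the threshold. Whether its probes lie in the deleted part is not stated. The mean log2 signal of 7 CD4 T cell genes lay between 12.75 and 13.01 on the 8 arrays. The mean of 5 Th17 genes was 9.72 and 9.72 without SRC-3 against 10.48 and 10.17 with it. It lay between 10.72 and 10.86 on the RORγt wild-type arrays, and between 8.27 and 8.39 without RORγt. Of these 5, 4 fell without RORγt, beside 9.37% of all tested genes (limma adjusted p under 0.05). Without SRC-3, Il17f alone passed the threshold (log2 fold change −1.03, limma adjusted p = 0.0347). This call was lost with the 4 arrays of that experiment alone, with array weights and in most fits with 1 array left out. Il17a gave −1.10 (limma adjusted p = 0.0567), Il23r −0.68 (adjusted p = 0.108) and Rora −0.40 (adjusted p = 0.36). Ccr6 gave 0.21 there (limma adjusted p = 0.534). Of 2 CD8 T cell genes, Cd8a was below the filter. Cd8b1 gave 8.91 and 8.75 without SRC-3 against 8.54 and 8.29 with it (log2 fold change 0.42, limma adjusted p = 0.133). Its fold change without RORγt was 0.18 (limma adjusted p = 0.229). Of 8 genes of monocytes, macrophages and neutrophils, 7 were below the filter, and so were 3 of 4 NK cell genes and all 4 dendritic cell genes. The other NK cell gene, Klrd1, a receptor chain that some T cells also carry, gave 8.92 and 8.61 without RORγt against 7.01 and 6.71 with it, and rose (log2 fold change 1.90, SE 0.13, limma adjusted p = 0.000485). The 3 dim NK cell genes differed little: Ncr1 gave 0.09, Eomes 0.11 and Klrb1c −0.08 (limma adjusted p = 0.652, 0.738 and 0.729, in a fit without the filter). The mean of the 4 NK cell genes, 6.67 and 6.54 in these deficient cells against 6.11 and 6.08 in their wild type, thus mainly reflects Klrd1. Of 5 B cell genes, 3 were below the filter. Among the others, Ebf1, a transcription factor gene of the B lineage, gave 10.14 and 10.13 without RORγt against 11.37 and 11.54 with it, and fell by 1.33 (SE 0.26, limma adjusted p = 0.0131), a call lost without any 1 array of that experiment. Cd79b gave −0.21 (limma adjusted p = 0.214). The part of such cells in the results below was not tested. The other myeloid gene, Ly6g, has close relatives in its family. It gave 10.87 and 8.95 without SRC-3, 10.92 and 10.38 with it, 12.66 and 12.90 without RORγt, and 11.73 and 11.68 on the wild type of that experiment. Xist, the RNA of the inactive X chromosome of females, was at 6.37 and 6.08 in cells lacking RORγt against 12.55 and 12.76 in cells with it. In the SRC-3 experiment it was at 7.10 on deficient replicate 1 and between 13.52 and 13.65 on the other arrays. Sex and genotype cannot be told apart in the RORγt comparison, and the part of sex in the results below was not tested.

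The stretches below lie upstream of the annotated start of each gene and show 2 short sequences that divide the family by protein length. They are RefSeq sequences of build GRCm38.p6, 100 bases each, 5′ to 3′ on the strand of the gene. All 7 members had a promoter window, of 250 bases before and 50 after the start. In the 4 short and intermediate genes the capitals mark ACTTCCTGG, which holds on its other strand the GGAA core recognised by transcription factors of the ETS family. These letters were chosen after the windows had been read, and no test was made.
Slfn1, chr11:83116686-83116785, plus strand: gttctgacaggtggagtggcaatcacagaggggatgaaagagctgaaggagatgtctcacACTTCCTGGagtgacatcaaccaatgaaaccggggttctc
Slfn2, chr11:83064997-83065096, plus strand: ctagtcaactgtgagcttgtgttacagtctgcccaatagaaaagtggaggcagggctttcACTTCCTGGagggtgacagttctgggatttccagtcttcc
Slfn3, chr11:83191228-83191327, plus strand: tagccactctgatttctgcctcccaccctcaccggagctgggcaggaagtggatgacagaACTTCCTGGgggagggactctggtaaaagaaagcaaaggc
Slfn4, chr11:83175053-83175152, plus strand: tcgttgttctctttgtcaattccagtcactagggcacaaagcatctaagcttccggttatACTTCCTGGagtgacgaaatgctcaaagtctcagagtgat
The match starts at −74 from the start of Slfn1, −55 for Slfn2, −42 for Slfn3 and −73 for Slfn4, where −1 is the base before the start. On either strand, 0.843% of all 32851 promoter windows of this length hold these letters, and the windows of Slfn5, Slfn8 and Slfn9 do not.

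In the 3 long genes the capitals mark 2 copies of GAAA, 2 bases of any kind apart, on either strand. This is the core of the interferon-stimulated response element (ISRE), which interferon regulatory factors bind.
Slfn5, chr11:82951887-82951986, plus strand: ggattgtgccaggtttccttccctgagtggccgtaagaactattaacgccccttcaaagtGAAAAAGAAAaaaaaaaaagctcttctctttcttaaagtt
Slfn8, chr11:83020819-83020918, minus strand: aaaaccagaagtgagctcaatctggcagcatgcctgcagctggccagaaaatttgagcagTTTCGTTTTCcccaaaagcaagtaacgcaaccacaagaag
Slfn9, chr11:82991836-82991935, minus strand: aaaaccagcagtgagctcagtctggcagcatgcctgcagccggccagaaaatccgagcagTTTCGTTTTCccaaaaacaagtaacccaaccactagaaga
The match starts at −155 in Slfn5, where it runs into a stretch of adenines, at −48 from the outer of the 2 annotated starts of Slfn8, and at −45 in Slfn9. Slfn8 and Slfn9 matched at 204 of the 250 upstream positions (81.6%), so their matches share 1 sequence background. The ISRE core was in 3.44% of all promoter windows, and these exact letters were not in the windows of Slfn1, Slfn2, Slfn3 and Slfn4. No member's window held the GAS element TTCNNNGAA (8.30% of all windows, both strands), an element of interferon gamma responses, or AGGTCA (16.3%, both strands), the core sequence that ROR receptors bind. A match describes letters in a window and is no evidence of binding.

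Without RORγt, 3 of the 6 tested Schlafen genes rose (Slfn1, Slfn2 and Slfn3), and the other 3 and Slfn4 were not called. Beside this, 10% of all tested genes rose and 9.37% fell in that comparison (limma on all 8 arrays, Benjamini-Hochberg adjusted p under 0.05). Without SRC-3, 0 of the 7 were called. There 0.225% of all tested genes were called and 0.189% rose, and Slfn1 was the 1 member with an unadjusted p under 0.05 and a higher level, as were 8.20% of all tested genes. The fold change was above 0 for all 7 genes in both comparisons, beside 57.2% (SRC-3) and 50.4% (RORγt) of all tested genes. Both deficient arrays exceeded both wild-type arrays for 6 of the 6 tested members in the RORγt experiment (35.8% of all tested genes) and for 3 of the 6 in the SRC-3 experiment (23.0%). The median log2 fold change of the 6 was 0.73 without RORγt and 0.25 without SRC-3, beside 0.00 and 0.02 over all tested genes. The RORγt count rests on few arrays: it was 1 without RORγt-deficient replicate 1, 2 without deficient replicate 2, and 0 without either wild-type array of that experiment. It was 4 without either SRC-3 wild-type array. Without SRC-3 wild-type replicate 1 the SRC-3 count was 1.

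**Figure D1:**
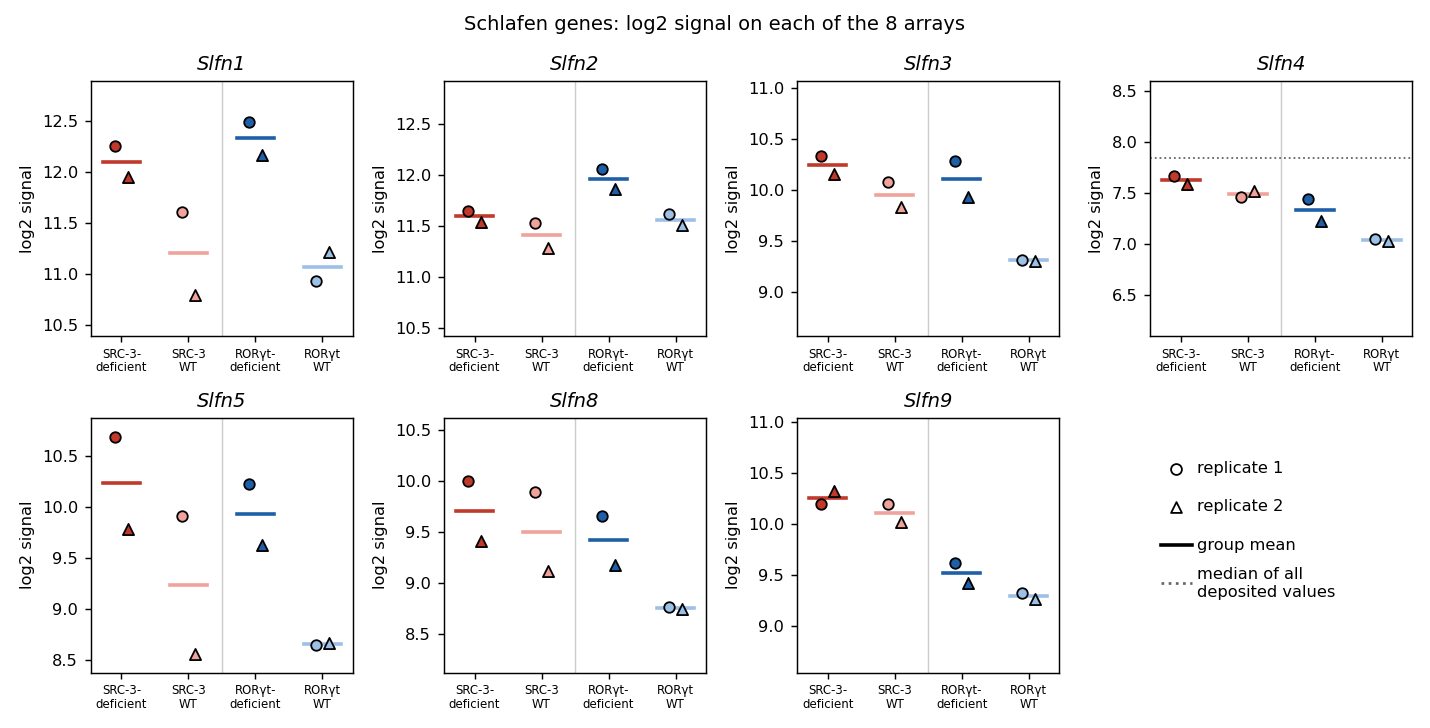
Log2 signal of each Schlafen gene on each of the 8 arrays (circles, replicate 1; triangles, replicate 2; bars, mean of the 2 arrays; dotted line, the filter value of 7.85), with all panels spanning the same range of log2 units. Slfn1 lies at 12.17 and 12.49 without RORγt against 10.93 and 11.22 on the wild type, and the 2 SRC-3 wild-type arrays of Slfn5 lie at 9.91 and 8.56.

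Slfn1, the short member whose overexpression holds back T cell growth, had log2 signals of 12.49 and 12.17 where RORγt was lacking, against 10.93 and 11.22 where it was present. Its mean was 12.33 ± 0.23 without RORγt and 11.07 ± 0.20 with it (SD, n = 2). Both deficient arrays lay well above both wild-type arrays, and the gap between the groups exceeded the gap within either. Slfn1 rose 2.39-fold (log2 fold change 1.26, SE 0.26, limma adjusted p = 0.0155). Its signals in the SRC-3 experiment were 12.26 and 11.95 in deficient cells, against 11.61 and 10.79 in wild-type cells. The groups did not overlap, but the 2 wild-type arrays differed by 0.82, and the difference missed the threshold (log2 fold change 0.90, SE 0.26, adjusted p = 0.215). The levels of the 2 deficient groups overlapped, and so did those of the 2 wild-type groups. Slfn1 lost its RORγt call without deficient replicate 1 (1.09, limma adjusted p = 0.108), wild-type replicate 1 (1.11, 0.105) or wild-type replicate 2 (1.40, 0.0662). Without SRC-3 wild-type replicate 1 it was called in the SRC-3 comparison (1.31, limma adjusted p = 0.0469), and without wild-type replicate 2 its fold change was 0.49.

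Slfn2, the short member needed for T cell quiescence, gave 12.06 and 11.87 without RORγt and 11.62 and 11.50 on the wild type of that experiment. The deficient arrays were the highest of all 8 arrays. Slfn2 rose 1.32-fold there (log2 fold change 0.40, SE 0.10, limma adjusted p = 0.0343), from 11.56 ± 0.08 to 11.96 ± 0.14 (SD, n = 2). The SRC-3-deficient arrays gave 11.64 and 11.54 against 11.53 and 11.28 on the wild type, a separation of 0.01 between the nearest arrays. Their difference missed the threshold (0.18, SE 0.10, limma adjusted p = 0.525), and it ranged from 0.06 to 0.31 as single arrays were left out. The SRC-3-deficient and the RORγt wild-type levels overlapped. Leaving out any 1 array of the RORγt experiment ended the Slfn2 call (log2 fold change between 0.30 and 0.50, limma adjusted p between 0.0567 and 0.209).

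Slfn3, an intermediate member, had signals of 10.29 and 9.94 where RORγt was lacking, against 9.32 and 9.30 where it was present. This wild type was the lowest of the 4 groups and stood apart from the other 3, which overlapped in sequence. Slfn3 rose 1.74-fold without RORγt (log2 fold change 0.80, SE 0.13, limma adjusted p = 0.00722), with the smallest p of the family in that comparison. Without SRC-3 the arrays gave 10.34 and 10.16 beside 10.08 and 9.83, again without overlap but short of the threshold (0.29, SE 0.13, adjusted p = 0.407), with a range of 0.17 to 0.42 as single arrays were left out. The RORγt call was lost without wild-type replicate 1 (0.81, limma adjusted p = 0.0531) or replicate 2 (0.79, 0.0576) and held without either deficient array. Slfn3 had the largest difference between the fold changes of the 2 comparisons, 0.51 (95% interval 0.08 to 0.93).

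Slfn4, the intermediate member best known from macrophages, was dim on every array. It gave 7.44 and 7.22 without RORγt beside 7.06 and 7.03, and 7.67 and 7.59 without SRC-3 beside 7.47 and 7.53. All 8 values lay below 7.85 and did not overlap between any of the 4 groups. In a fit of all 19938 genes without the filter its log2 fold change was 0.29 without RORγt (SE 0.08, limma adjusted p = 0.0651), a fit in which 4.72% of genes rose, and 0.14 without SRC-3 (SE 0.08, adjusted p = 0.646). The RORγt value ranged from 0.18 to 0.40 as single arrays were left out. Slfn4 was called in the RORγt comparison after a new quantile normalization (0.30, limma adjusted p = 0.0486) and after each array was shifted to 1 median (0.31, adjusted p = 0.0479). A fit with array weights called Slfn4 there too. Of the 8 myeloid markers, Lyz2, Csf1r, Cd14, Itgam, Adgre1, S100a8 and S100a9 were below the filter as well, and Ly6g was above it. Ly6g gave 1.08 without RORγt (limma adjusted p = 0.189) and −0.74 without SRC-3 (adjusted p = 0.624). The part of myeloid cells in the Slfn4 signal was not tested.

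Slfn5, a long member found in the nucleus, had the largest fold change of the family in both comparisons and also the widest spread. Its signal was 10.23 and 9.62 without RORγt and 8.65 and 8.66 on the wild type, so the wild-type arrays agreed closely and the deficient arrays did not. The 2.41-fold difference missed the threshold (log2 fold change 1.27, SE 0.45, limma adjusted p = 0.0882). Cells lacking SRC-3 gave 10.69 and 9.79, against 9.91 and 8.56 in wild-type cells. Wild-type replicate 1 lay above deficient replicate 2, so the groups overlapped (1.0, SE 0.45, limma adjusted p = 0.414). The spread used for Slfn5 comes from all 4 groups. With the 4 RORγt arrays alone it was called (limma adjusted p = 0.0051), and so it was without SRC-3 wild-type replicate 1 or 2 (adjusted p = 0.0251 for each). Its SRC-3 fold change was 1.67 when wild-type replicate 1 was left out, 0.32 when wild-type replicate 2 was, and 0.55 when deficient replicate 1 was. The antisense RNA Slfn5os, which overlaps the Slfn5 locus, was dim, between 6.95 and 7.41.

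Slfn8 and Slfn9 are long members with similar sequences, and so is the neighbouring Slfn10-ps, so how far their probes share signal is uncertain. Slfn8 gave 9.66 and 9.18 without RORγt beside 8.76 and 8.74 (log2 fold change 0.67, SE 0.28, limma adjusted p = 0.142). The nearest arrays of the groups lay 0.42 apart, with the deficient cells higher. In the SRC-3 experiment the values of Slfn8 were 10 and 9.42 beside 9.89 and 9.12, an overlap (0.20, SE 0.28, adjusted p = 0.842). The sign of that value turned without wild-type replicate 2 (−0.18) or deficient replicate 1 (−0.09). With the 4 RORγt arrays alone Slfn8 was called in the RORγt comparison (limma adjusted p = 0.0192).

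Slfn9 varied least with genotype in the RORγt comparison. It gave 9.61 and 9.42 without RORγt beside 9.33 and 9.27 (log2 fold change 0.22, SE 0.09, limma adjusted p = 0.136), and 10.20 and 10.32 without SRC-3 beside 10.20 and 10.02 (0.15, SE 0.09, adjusted p = 0.566). All 4 arrays of the SRC-3 experiment exceeded all 4 of the RORγt experiment. As single arrays were left out, the Slfn9 fold change ranged from 0.12 to 0.32 without RORγt and from 0.059 to 0.24 without SRC-3. Slfn10-ps, a pseudogene by its symbol, gave 10.16 and 9.75 without RORγt beside 9.57 and 9.78, an overlap (0.28, SE 0.16, limma adjusted p = 0.253). The distant relative Slfnl1, on another chromosome, gave −0.15 (SE 0.07, adjusted p = 0.189). Without SRC-3 the values were 0.09 and 0.05 (adjusted p = 0.875 and 0.842).

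**Figure D2:**
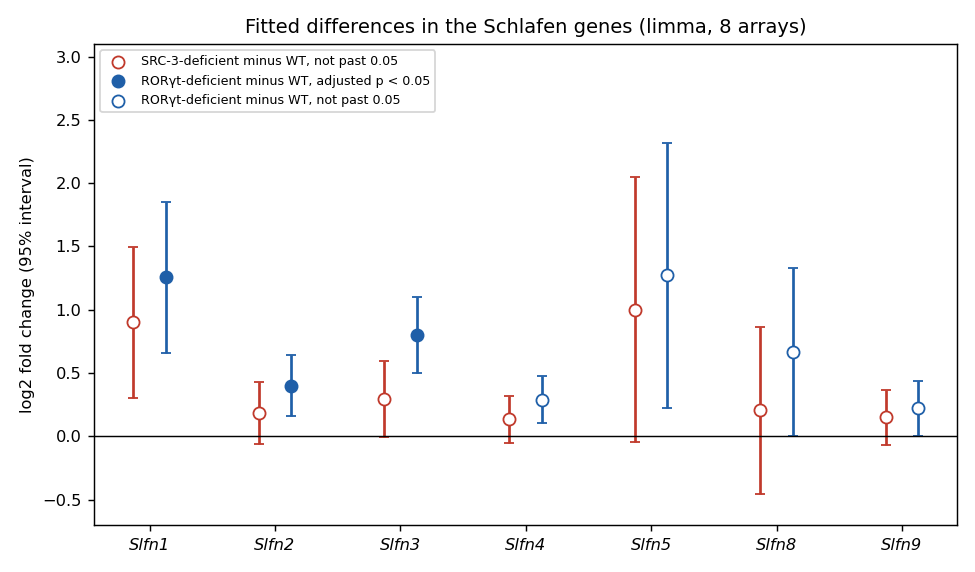
Log2 fold change of each Schlafen gene (deficient minus wild type) with its 95% interval from the moderated fit to 8 arrays, with Slfn4 from the fit without the filter. Filled points passed an adjusted p of 0.05: Slfn1 (1.26), Slfn2 (0.40) and Slfn3 (0.80) without RORγt.

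The 2 comparisons share no arrays, so the difference between their fold changes could be tested. All 7 members had a larger fold change without RORγt than without SRC-3, beside 46.0% of all tested genes. The sign of this difference turned as single arrays were left out for Slfn1 (lowest value −0.053), Slfn5 (−0.40) and Slfn9 (−0.025). By the test, 0 of the 7 differences passed, beside 1.67% of all tested genes (limma adjusted p under 0.05). At an unadjusted p under 0.05 the 1 member was Slfn3 (limma adjusted p = 0.227), beside 7.47% of all tested genes that passed with a larger fold change without RORγt. The differences ranged from 0.07 for Slfn9 (95% interval −0.23 to 0.38) to that of Slfn3. For Slfn1 the difference was 0.36 (−0.49 to 1.20) and for Slfn5 0.27 (−1.21 to 1.75). These intervals are wide, and they do not show that the 2 deficiencies act alike on the family.

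The type I interferon response, the set of antiviral genes that interferon induces, was higher on the arrays where the Schlafen genes were higher. Of 27 such genes tested, 9 rose without RORγt and 0 fell, with a median log2 fold change of 0.81. Beside this, 10% of all tested genes rose and 9.37% fell. The fold change without RORγt was above 0 for 24 of the 27 (50.4% of all tested genes). It was below 0 for Oas1a (−0.13), Oasl1 (−0.12) and Bst2 (−0.007). Ifit2, an inhibitor of translation of viral RNA, rose by 0.71 (SE 0.10, limma adjusted p = 0.00428). Zbp1, a sensor of nucleic acids, rose by 0.83 (SE 0.15, adjusted p = 0.01), Parp9 by 0.75 (SE 0.14, adjusted p = 0.0109), and the antiviral GTPase gene Mx1 by 1.43 (SE 0.31, adjusted p = 0.0183). Without SRC-3, 0 of the 27 were called (limma), beside 0.225% of all tested genes. All 27 fold changes were above 0 there (57.2% of all tested genes), and the median was 0.62. The smallest p there belonged to Zbp1 (0.62, adjusted p = 0.155) and Oasl2 (1.05, adjusted p = 0.247). The count of 9 fell to 1 without RORγt-deficient replicate 1, wild-type replicate 1 or wild-type replicate 2, and was 18 without either SRC-3 wild-type array. Ifit2 kept its call without any 1 array, and Zbp1, Parp9 and Mx1 lost theirs without any of those 3 RORγt arrays.

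Array by array, the Schlafen and interferon genes took similar values. Relative to the mean of its experiment, the mean of the 6 Schlafen genes was 0.39 and 0.06 in cells lacking SRC-3, against 0.07 and −0.53 in wild-type cells. The interferon list stood at 0.51 and 0.12 and at 0.04 and −0.66 on the same arrays. In the RORγt experiment the Schlafen mean was 0.56 and 0.21 in deficient cells, against −0.39 and −0.38 in wild-type cells, and the interferon list stood at 0.69, 0.11, −0.39 and −0.41. SRC-3 wild-type replicate 2 was thus the lowest array of its experiment for both, and deficient replicate 1 was the highest array of each experiment for both. Xist was low on SRC-3-deficient replicate 1 (7.10), alone in its experiment, and on both RORγt-deficient arrays (6.37 and 6.08). The part of sex in these levels was not tested. Over the 8 arrays, Pearson's r with the interferon list was 0.99 for Slfn5, 0.96 for Slfn1 and Slfn2, 0.93 for Slfn3 and Slfn8, and 0.87 for Slfn9. These correlations are descriptions over 8 arrays that share the genotype difference. The part of the interferon response in the Schlafen differences was not tested, and in bulk RNA a change in the share of responding cells cannot be told apart from a change in RNA per cell.

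**Figure D3:**
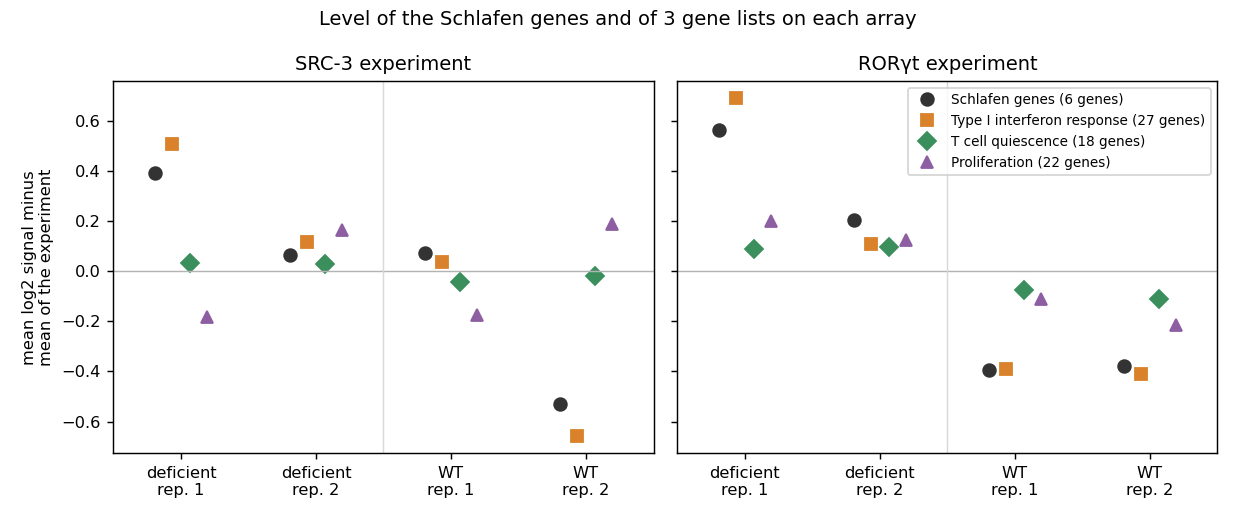
Mean log2 signal of the 6 tested Schlafen genes and of 3 gene lists on each array, after subtraction of the mean of the 4 arrays of the experiment. The Schlafen genes (0.39 to −0.53 in the SRC-3 experiment, 0.56 to −0.39 in the RORγt experiment) lie close to the interferon genes. The quiescence mean stays between −0.11 and 0.09, and it averages genes that changed in both directions. The proliferation mean is −0.18 and 0.17 without SRC-3 and −0.17 and 0.19 on that wild type. In the RORγt experiment it is 0.20 and 0.13 in deficient cells against −0.11 and −0.21.

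Within the family, the pairs of genes correlated over the 8 arrays with r between 0.73 (Slfn8 and Slfn9) and 0.97 (Slfn2 and Slfn3), after each experiment was centred. Of the genes most like each member by this measure, several are known interferon-induced genes. For Slfn1 they were the GTPase gene Iigp1 (r = 0.99), Parp14 (0.99) and the nuclear body gene Sp100 (0.99). Slfn2 came closest to the MHC class Ib gene H2-T24 (0.99), to Mx1 (0.99) and to the kinesin gene Kif1b (0.99). Slfn5 was nearest to Oas1b (0.995), to Trim30d (0.995) and to Tor1aip2 (0.99). Slfn3 came closest to Wdr44 (0.99), to the calcium sensor gene Stim2 (0.99) and to Tut4, a terminal uridylyltransferase of small RNAs (0.99). Slfn8 was nearest to Rgs3 (0.98), Znfx1 (0.97) and the kinase gene Hipk1 (0.96), and Slfn9 to the splicing factor gene Slu7 (0.998), Rbm48 (0.98) and Armcx1 (0.97). These genes were picked as the nearest of 11128, and no test was made.

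Interferon reaches its targets through receptors and Jak kinases, and part of this pathway rose without RORγt. Of 9 tested genes, 4 rose and 0 fell (median log2 fold change 0.35), beside 10% and 9.37% of all tested genes. Ifngr1, a receptor chain for interferon gamma, rose by 0.79 (SE 0.09, limma adjusted p = 0.00204), and the type I receptor chain genes Ifnar1 and Ifnar2 rose by 0.38 (adjusted p = 0.0101) and 0.25 (adjusted p = 0.0362). Stat2, which joins Irf9 in the complex that binds the ISRE, rose by 0.72 (SE 0.20, adjusted p = 0.0418). Of the ligand genes, Ifnb1 was dim, between 5.77 and 6.23 on all arrays (−0.27 without RORγt, limma adjusted p = 0.129, no filter). Ifng, also below the filter, gave 7.60 and 7.87 without RORγt beside 7.17 and 7.16 and rose by 0.57 (limma adjusted p = 0.0136, no filter). In the SRC-3 comparison 0 of the 9 were called (limma), beside 0.225% of all tested genes. The smallest p there belonged to Ifnar2 (0.30, limma adjusted p = 0.131) and Ifngr2 (0.36, adjusted p = 0.132). The count of 4 was 1 or 2 without any 1 array of the RORγt experiment, and of the genes named here Ifngr1 alone kept its call without each array. Ifnar1 lost its call without either deficient array or wild-type replicate 2, Ifng without deficient replicate 2 or either wild-type array, and Ifnar2 and Stat2 without any of the 4.

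Genes of T cell quiescence, the state in which resting T cells are held and in which Slfn2 acts, changed in both directions. Of 18 tested, 5 rose and 1 fell without RORγt, with a median log2 fold change of 0.03. Of all tested genes, 10% rose and 9.37% fell. Klf2, the transcription factor gene of naive T cell quiescence and recirculation, rose by 1.43 (SE 0.09, limma adjusted p = 0.000317). S1pr1, the Klf2 target that lets T cells leave lymphoid organs, rose by 1.05 (SE 0.09, adjusted p = 0.000868). Cdkn1b, which encodes the cell cycle inhibitor p27, rose by 0.42 (SE 0.07, adjusted p = 0.00642), and Il7r, the gene of the interleukin 7 receptor, fell by 0.44 (SE 0.06, adjusted p = 0.0036). Without SRC-3, 0 of the 18 were called (limma), beside 0.225% of all tested genes. The smallest p there belonged to Il7r (−0.24, limma adjusted p = 0.16) and Btg2 (0.21, adjusted p = 0.267). The count of 6 was 4 without RORγt-deficient replicate 1 or either wild-type array, and Cdkn1b lost its call without deficient replicate 1 or wild-type replicate 2.

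Proliferation genes are kept low in quiescent cells. Of 22 tested, 2 rose without RORγt and 0 fell (median log2 fold change 0.28), a share near that of all tested genes (10% rose). The fold change was above 0 for 18 of the 22 (50.4% of all tested genes), and both deficient arrays exceeded both wild-type arrays for 16 (35.8%). The 2 called genes were Top2a, the topoisomerase of dividing cells (0.56, SE 0.13, limma adjusted p = 0.026), and the cyclin gene Ccnb2 (0.81, SE 0.23, adjusted p = 0.0473). Both calls were lost without any 1 array of the RORγt experiment, and the count was 8 without either SRC-3 wild-type array and 5 without either SRC-3-deficient array. Without SRC-3, 0 of the 22 were called (limma, median 0.04), beside 0.225% of all tested genes. Mcm3 gave −0.40 there (limma adjusted p = 0.192) and Mcm2 −0.19 (adjusted p = 0.312), both parts of the replicative helicase. Of 6 tested genes listed for endoribonucleases and transfer RNA cleavage, Ern1, which encodes the stress sensor and RNase IRE1, fell by 0.89 without RORγt (SE 0.08, limma adjusted p = 0.00115). Elac2, the gene of a nuclease that trims transfer RNA precursors, fell by 0.39 (SE 0.10, adjusted p = 0.0322), a call lost without any 1 array of that experiment. Dnase2a, which codes for a nuclease of DNA, rose by 0.55 (SE 0.07, adjusted p = 0.00407). In the SRC-3 comparison 0 of the 6 were called (limma), beside 0.225% of all tested genes. Ern1 gave −0.28 there (limma adjusted p = 0.226) and Dnase2a 0.14 (adjusted p = 0.493).

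**Figure D4:**
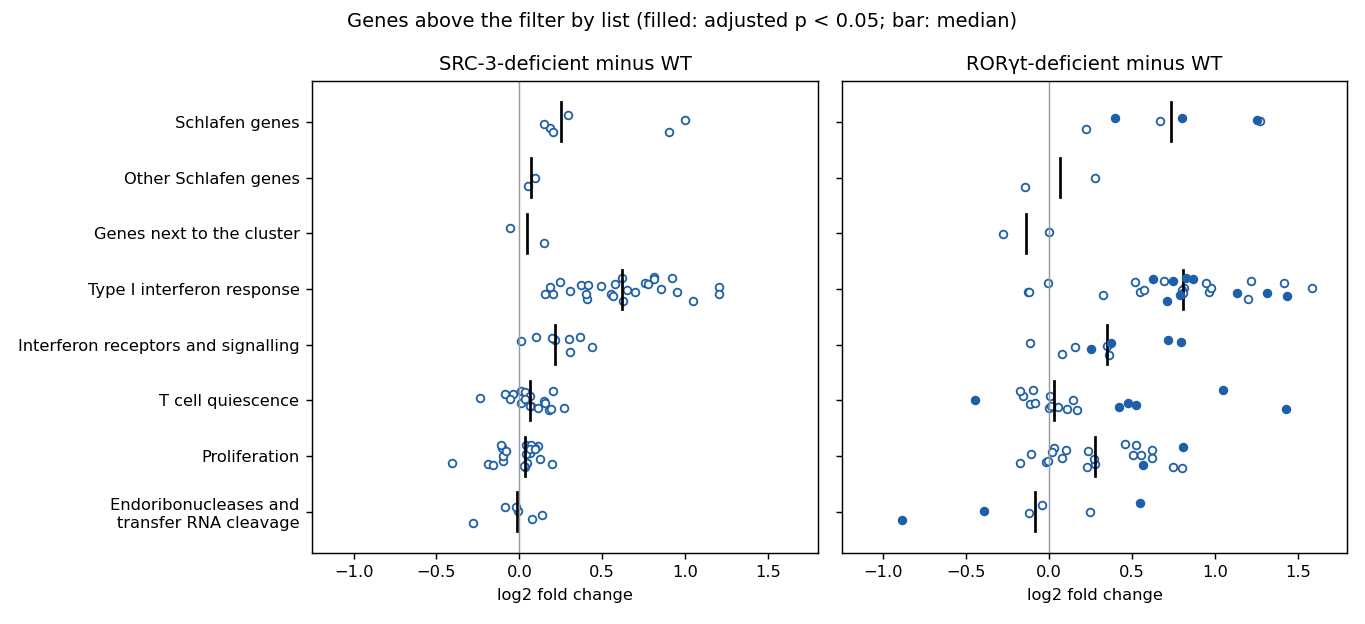
Log2 fold changes of the genes above the filter, by list, in the 2 comparisons (filled points, adjusted p under 0.05; vertical bars, list median; vertical scatter within a list has no meaning). The medians of the Schlafen genes are 0.25 and 0.73, and those of the type I interferon response 0.62 and 0.81.

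None of the 6 genes that flank the cluster was called in either comparison. Of the 3 measured protein-coding genes before Slfn5, the ribosome biogenesis gene Nle1 gave −0.28 without RORγt (SE 0.09, limma adjusted p = 0.0779), and Fndc8 and Unc45b, a chaperone of muscle myosin, were below the filter (0.11 and −0.10, adjusted p = 0.507 and 0.565, no filter). After Slfn3, the clathrin adaptor gene Ap2b1 gave 0.00 without RORγt (adjusted p = 0.997, limma). The dim genes Rasl10b and Gas2l2 gave −0.01 and −0.33 (adjusted p = 0.958 and 0.0826, no filter). In the SRC-3 comparison their fold changes lay between −0.11 (Gas2l2) and 0.15 (Ap2b1, limma adjusted p = 0.388). Whether neighbours and members differ was not tested.

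**Figure D5:**
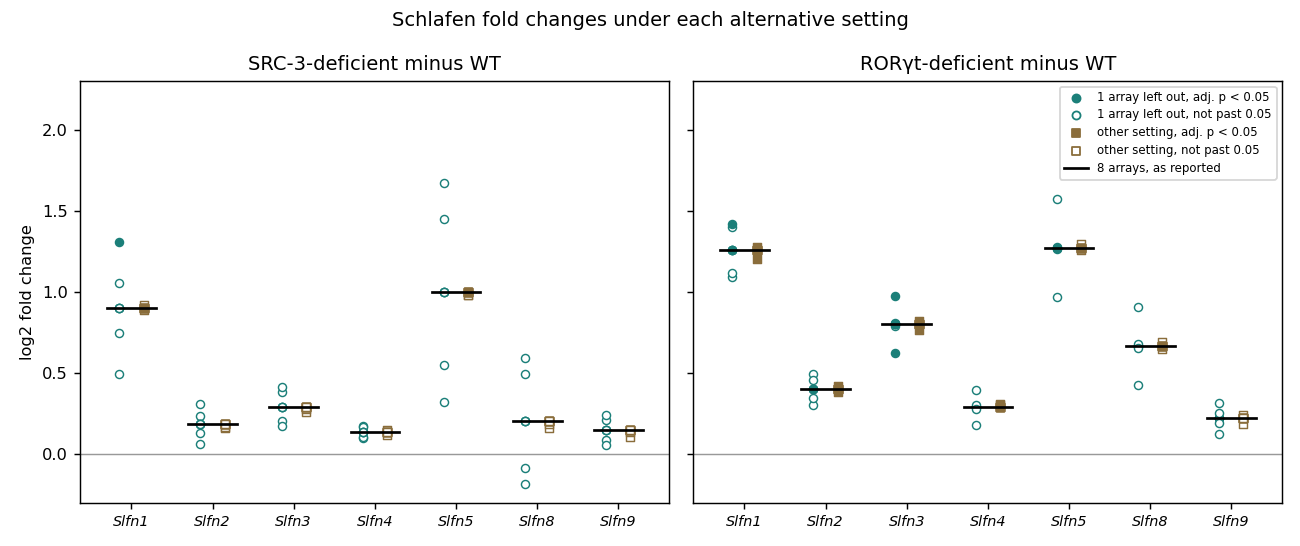
Log2 fold change of each Schlafen gene under every alternative (circles, 1 array left out; squares, other settings; filled, adjusted p under 0.05; black bars, the reported value from 8 arrays). In the SRC-3 comparison Slfn5 ranges from 0.32 to 1.67 and Slfn8 from −0.18 to 0.59 as single arrays are left out, while in the RORγt comparison all values stay above 0.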

How the data were processed

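RNA from 8 samples was measured on 1-colour Affymetrix Mouse Gene arrays, 1 array per sample. The deposited values are log2 signals summarised per probe set by RMA. The software was Affymetrix Expression Console, according to the submitters' processing notes. The log2 scale was read from their range (3.50 to 15.03). The genome build of the probes is not given in the sources used here, and no probe coordinates are printed. Of 35556 probe sets, 21789 named 1 gene in the platform annotation, 1621 named several and 12146 none. The reference annotation (GRCm38.p6) changed 0 symbols.

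A probe set was tested if it reached 7.85 on at least 2 arrays, and the brightest stood for its gene. Group means of all 8 arrays were fitted with limma 3.58.1 in R 4.3.3 (4 residual and 3.53 prior degrees of freedom), two-sided, with Benjamini-Hochberg adjustment over 11128 genes and a threshold of 0.05. SE and 95% intervals are those of the moderated fit. Dim genes were taken from a fit of 19938 genes without the filter. No set was tested as a set. The script was tested on simulated data.

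The members and lists were chosen with earlier results of these data known. Beside the members, the text names up to 4 called genes of each list and comparison by smallest p (otherwise 2), the 3 genes most correlated with each tested member, and up to 3 flanking genes on each side. Ifnb1, Ifng, Oas1a, Oasl1, Bst2, the marker genes, Ncoa3, Xist and Slfn5os were named beyond that rule. Some listed genes were not analysed here. Promoters are RefSeq windows, searched with Python 3.11.15 and aligned with Biopython 1.88.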

Additional observations from a re-analysis of the deposited data

How the results depend on the processing

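In the RORγt comparison the count of called Schlafen genes (3 of 7) was 5 with the 4 arrays of the comparison alone and 6 with array weights, and between 0 and 4 as single arrays were left out. It was 3 or 4 under the other normalizations, filters, probe set rules and priors. In the SRC-3 comparison the count (0) was between 0 and 1 as single arrays were left out and 0 under every other setting except the replicate block. In the test of the difference it was 0 throughout, again with that exception. A fit with the replicate block called 6 members in the RORγt comparison, 2 (Slfn1 and Slfn5) in the SRC-3 comparison and 1 (Slfn3) for the difference. The labels state no pairing of arrays. Across 11128 genes, the differences between replicates 1 and 2 in deficient and wild-type cells correlated with r = 0.54 in the SRC-3 experiment and 0.00 in the RORγt experiment.

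Fold changes reversed only as single arrays were left out. In the SRC-3 comparison Slfn8 ranged from −0.18 without SRC-3 wild-type replicate 2 to 0.59 without replicate 1, and was −0.088 without SRC-3-deficient replicate 1. For the difference between the comparisons, Slfn1 ranged from −0.053 without SRC-3 wild-type replicate 1 to 0.76 without replicate 2. Slfn5 ranged from −0.40 to 0.95 without the same arrays, with −0.18 without SRC-3-deficient replicate 2 and −0.031 without RORγt-deficient replicate 1. Slfn9 ranged from −0.025 without RORγt-deficient replicate 1 to 0.17 without deficient replicate 2, with −0.019 without SRC-3 wild-type replicate 1. The cause was not tested. A group left with 1 array was assumed to vary like the others. Signal near background limits Slfn4, and 2 arrays a group limit every value.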

Other observations

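The gap between the 2 replicates of a group differed among the Schlafen genes. For Slfn5, replicate 1 exceeded replicate 2 by 0.90 in the SRC-3-deficient group, 1.35 in the SRC-3 wild type and 0.60 in the RORγt-deficient group, while the RORγt wild-type arrays differed by −0.02. For Slfn8 the same gaps were 0.58, 0.78, 0.48 and 0.02. For the short member Slfn1 they were 0.31, 0.82, 0.33 and −0.29, the last being the widest gap of any member in the RORγt wild type. For Slfn2 they were 0.10, 0.25, 0.19 and 0.11. Slfn9 had −0.12, 0.18, 0.19 and 0.06. Wide and narrow gaps thus occurred among both short and long members.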
